A study of Mus musculus with 38 samples.

Results

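The transcriptomes of 5 mouse leukaemias started with the fusion oncogene MLL-AF9 were compared with those of 7 started with MLL-ENL, 12 of the 38 arrays of the series. The members are all arrays whose titles name these 2 fusions, 1 array per mouse. The comparison asks how leukaemias of 2 homologous fusion partners differ, and genes on chromosomes X and Y were set aside. Per the labels, c-kit+ marrow progenitors were infected with a retrovirus carrying the fusion gene and transplanted into C57BL/6 mice of the same inbred strain and either sex after lethal irradiation, whose whole marrow was taken at euthanasia and frozen before total RNA was extracted. The labels do not give which mice were of which sex, the age, how many donors were pooled or the clones in each leukaemia. For context the series also holds 9 MLL-AF1p, 8 MLL-AF10 and 5 MLL-GAS7 leukaemias made in the same way and 4 normal marrow samples. Mice are named by fusion partner and label number: AF9_307, AF9_308, AF9_301, AF9_305 and AF9_310 carried MLL-AF9, and ENL_701, ENL_760, ENL_702, ENL_741, ENL_703, ENL_742 and ENL_774 carried MLL-ENL.

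MLL, encoded by Kmt2a in the mouse, is a histone methyltransferase that keeps Hox genes active during development. In leukaemia its front part is joined to a partner protein. AF9 (gene Mllt3) and ENL (gene Mllt1) are homologues with a YEATS domain that reads acylated histones and a tail that binds the super elongation complex and the methyltransferase Dot1l. Both fusions drive transcription of HoxA cluster genes and Meis1, which hold myeloid progenitors in self-renewal.

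Several features of the arrays come before the results. Levels are log2(intensity + 46.1) of the deposited values, the added 46.1 being the lower quartile of the deposited table. The median intensity of the 12 arrays ran from 133.7 to 160.2. Xist, the RNA that silences 1 X chromosome in female cells, was at 8.74 to 10.66 in 4 MLL-AF9 marrows, at 14.67 in mouse AF9_305, and at 14.22 to 14.89 in the 7 MLL-ENL marrows. The Y-linked gene Eif2s3y was at 10.20 to 10.73 in those 4 MLL-AF9 marrows, at 8.76 in mouse AF9_305 and at 5.78 to 6.45 in MLL-ENL. Cohort and sex of the cells therefore ran nearly in parallel, and mouse AF9_305 is the only MLL-AF9 animal with Xist at the MLL-ENL level. The values also separated the arrays of every leukaemia cohort into 2 sets that no label names. Mice AF9_307, AF9_308 and AF9_301 and mice ENL_701, ENL_760, ENL_702 and ENL_741 fell in the first, and the other 5 of the 12 in the second. Of 5 quality signs, the 3' to 5' ratio of the Gapdh control had the lowest p, with a difference of 0.10 (log2; exact permutation p = 0.0328, 2-sided over 792 assignments of the arrays, adjusted p = 0.164 over the 5 signs). The 18S signal differed by -0.83 (adjusted p = 0.244 by the same exact permutation test). The part of sample quality in the results was not tested.

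Both cohorts carried the signature of leukaemia driven by MLL fusions. Hoxa9, the homeobox gene at the centre of that programme, was at 12.59, 13.34, 13.10, 12.89 and 13.45 in mice AF9_307, AF9_308, AF9_301, AF9_305 and AF9_310, the order used for MLL-AF9 throughout. In the 7 MLL-ENL marrows its lowest, median and highest levels were 12.41, 12.85 and 13.47, so the cohorts overlapped fully. The difference was 0.17 ± 0.23 (log2, SE, adjusted p = 0.89 by limma), and normal marrow was at 7.78. Meis1, which binds DNA together with Hoxa9, was at 11.32, 11.37, 11.33, 11.76 and 11.15 in MLL-AF9 and at 9.83, 10.69 and 11.36 in MLL-ENL. Its difference of 0.67 ± 0.27 did not pass the test (adjusted p = 0.426), and its other 2 probe sets differed by 0.74 and 0.48. Kmt2a itself differed by 0.00 ± 0.14, Mllt1 by -0.06 ± 0.31 and Mllt3 by -0.15 ± 0.33 (adjusted p = 0.999, 0.981 and 0.937). Whether these probe sets read the retroviral fusion is not stated in the labels, so they do not check the labels.

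Both marrows were myeloid. The primary granule genes Mpo, Elane, Prtn3 and Ctsg lay between 14.24 and 15.40 on all 12 arrays, and Csf1r, the receptor for macrophage colony-stimulating factor, was at 13.47 on average in MLL-AF9 and 13.75 in MLL-ENL. Defining markers of the red cell, B cell, T cell and platelet lineages were low in both. The red cell gene Slc4a1 averaged 6.78 in MLL-AF9 and 6.99 in MLL-ENL against 14.51 in normal marrow. The B cell receptor component Cd79a averaged 7.87 and 7.70 against 12.05, the T cell receptor component Cd3d 6.08 and 6.19 against 9.00, and the platelet chemokine Ppbp 6.95 and 7.01 against 13.47. Among the 19 B cell genes tested the mean level of a marrow ran from 7.54 to 7.85 in MLL-AF9 and from 7.48 to 7.90 in MLL-ENL. Eosinophil and basophil genes were not uniformly low. Prg2, the eosinophil major basic protein, was at 13.64 in mouse ENL_742, at 6.70 to 9.09 in the other 6 MLL-ENL marrows and at 8.36 to 11.03 in MLL-AF9, against 14.05 in normal marrow. Epx, eosinophil peroxidase, was at 9.65 in mouse ENL_742 and at 6.17 to 7.81 in the other 11. Mcpt8, a basophil protease, averaged 9.92 in MLL-AF9 and 9.26 in MLL-ENL (adjusted p = 0.426). In bulk marrow fewer cells of a type and less RNA per cell cannot be told apart.

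Of 12854 autosomal genes tested, 50 differed between the cohorts at an adjusted p under 0.05 (limma on all 38 arrays with Benjamini-Hochberg adjustment), which is 0.389% of those tested. Of these, 37 genes (0.288%) were higher in MLL-AF9 and 13 (0.101%) were higher in MLL-ENL. The 37 fell to 19 without mouse AF9_305 and to 20 without mouse AF9_310. The folds ran from 1.54 to 5.43, and 35 genes differed at least 2-fold. For 24 of the 50 no array of one cohort reached into the range of the other, against 165 (1.28%) of all genes tested. The median difference over all genes was -0.05 (log2, MLL-AF9 minus MLL-ENL). Of 50 further probe sets for 23 of the called genes, 49 had the same sign as the probe set used. Single marrows and the estimate of spread moved the count: it was 24 without mouse AF9_310, 28 without AF9_305, 29 without ENL_741, 31 without ENL_774, 32 without ENL_703 and 33 without ENL_702 or ENL_760. A fit to the 12 arrays alone called 20, and only 13 of the 50 were among them. All 50 kept their sign in every alternative that tested them, and 16 stayed called whichever of the 12 marrows was left out. The alternatives reuse the arrays from which the genes were called, so the kept signs are no independent test.

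**Figure D1:**
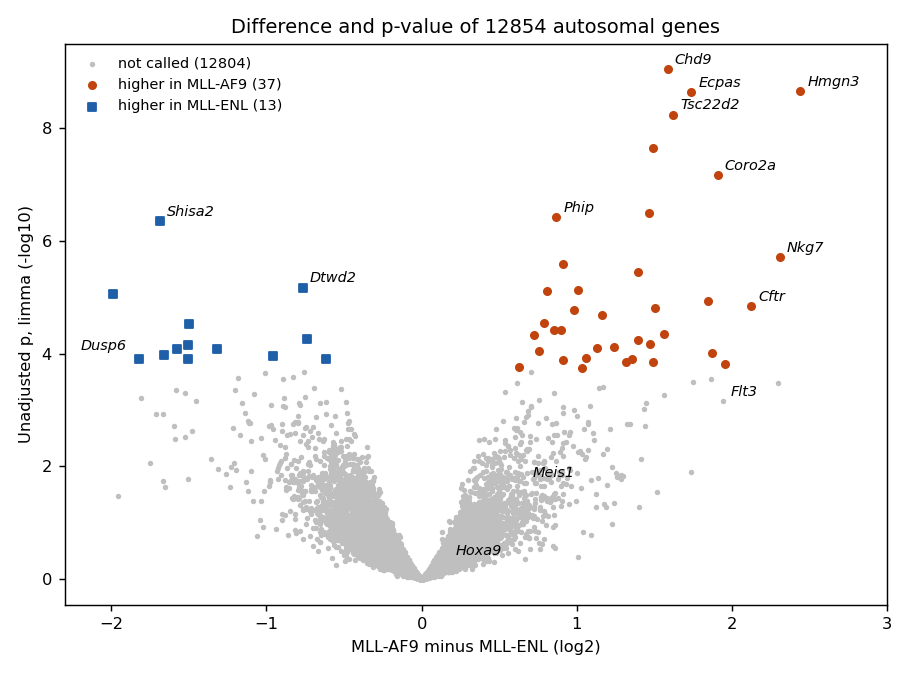
Each point is 1 of 12854 autosomal genes, with the MLL-AF9 minus MLL-ENL difference (log2) on the horizontal axis and the unadjusted p of limma as -log10 on the vertical axis. The 37 genes called higher in MLL-AF9 reach 2.44 to the right, while Hoxa9 and Meis1 lie among the genes not called.

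Mouse AF9_305 gives the only view of the difference in marrow with a high Xist level in both cohorts. Its marrow also held Y-linked RNA, with Eif2s3y at 8.76 and Kdm5d at 7.85. The highest MLL-ENL levels of these genes were 6.45 and 7.22. Mouse AF9_305 is therefore matched to MLL-ENL in Xist but not in Y-linked RNA. Mouse AF9_305 lay above the median of MLL-ENL for 37 of the 37 genes higher in MLL-AF9 and above every MLL-ENL marrow for 35 of them. Of the 13 genes higher in MLL-ENL, mouse AF9_305 lay below the MLL-ENL median for 13 and below all 7 marrows for 8. These counts include mouse AF9_305 in the choice of the genes. Every other MLL-AF9 marrow also lay on the same side of the MLL-ENL median for all of these genes. The counts are therefore no independent test of the difference at high Xist. Without mouse AF9_305 28 of the 50 were still called. Xist was then low in every MLL-AF9 marrow and high in every MLL-ENL marrow, so this count cannot show a difference at matched Xist. With the Xist level as a covariate 12 were called, among them Hmgn3, Ecpas, Chd9, Tln2, Itih5 and Shisa2. Within groups Xist varied widely only in MLL-AF9, so the 12 rest mainly on mouse AF9_305. Itih5 lost its call in the main fit without this mouse (adjusted p = 0.0825, limma).

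The largest difference was that of Hmgn3, higher in MLL-AF9, and several other genes with known roles in chromatin, transcription or protein turnover were called. These roles are background, and the groups of genes described next were put together after the calls were seen. Of 25 Polycomb genes and 21 genes of DNA methylation and histone demethylation, limma called none, and 2 and 5 had an unadjusted p under 0.05, beside 8.95% of all genes. Hmgn3, a protein that binds nucleosomes and loosens chromatin, was at 8.92, 9.90, 9.46, 9.34 and 8.61 in the MLL-AF9 marrows. Its lowest, median and highest levels in MLL-ENL were 5.93, 6.93 and 7.34. All 5 MLL-AF9 marrows lay above all 7 of MLL-ENL, a difference of 2.44 ± 0.31, or 5.43-fold (adjusted p = 1.01e-05). Ecpas, the adaptor that tethers and inspects the proteasome, was at 11.29, 12.21, 11.91, 12.004 and 12.34 against 9.87, 10.27 and 10.45. It differed 3.33-fold with no overlap (adjusted p = 1.01e-05), and its other 3 probe sets differed by 0.92 to 1.43 in the same direction. Chd9, a chromodomain helicase, was at 10.47, 11.74, 11.63, 11.14 and 11.50 in MLL-AF9. Its MLL-ENL levels were tight, at 9.57, 9.71 and 10.02, and the difference was 1.58 ± 0.19 (adjusted p = 1.01e-05). Its other 2 probe sets, both dimmer, differed less, by 0.13 ± 0.33 and 0.97 ± 0.17. Mouse AF9_307 was the lowest of the MLL-AF9 marrows for both Ecpas and Chd9 and still above every MLL-ENL marrow. Tsc22d2, a member of the TSC22 family of leucine zipper proteins, was at 10.49, 11.82, 12.21, 11.41 and 11.76 against 9.73, 9.91 and 10.26 (difference 1.62 ± 0.22, adjusted p = 1.89e-05). Zfp507, a zinc finger protein, differed 3.66-fold (adjusted p = 0.0336) with overlap, since mouse ENL_774 of the MLL-ENL cohort reached 7.80 and mouse AF9_307 was at 7.51.

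Mef2c, a transcription factor of lymphoid and myeloid progenitors that MLL fusions activate, was 2.96-fold higher in MLL-AF9 (1.56 ± 0.34, adjusted p = 0.0227). Its 5 MLL-AF9 levels were 12.87, 10.94, 11.31, 12.91 and 12.004, and those of MLL-ENL were 8.92, 10.56 and 11.96. The cohorts overlapped, because mouse ENL_742 stood at the top of the MLL-ENL range and mice AF9_308 and AF9_301 at the bottom of the MLL-AF9 range. Its other 4 probe sets differed by 1.48 to 1.73. Without mouse AF9_305 the difference was 1.34, with an adjusted p of 0.14.

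Another group of genes higher in MLL-AF9 encode proteins best known from lymphocytes or from antigen presentation, in marrows whose B and T cell markers were low. Nkg7, a protein of cytotoxic granules, was at 10.75, 11.91, 10.95, 12.09 and 11.45 against 8.21, 8.96 and 11.15 in MLL-ENL, a 4.95-fold difference (adjusted p = 0.00254). The 11.15 belongs to mouse ENL_774, and the other 6 MLL-ENL marrows lay between 8.21 and 9.25. Nkg7 was the only one of 17 T and NK cell genes tested that was called, and Cd3e differed by -0.57 ± 0.34 (adjusted p = 0.66). H2-Oa, which forms the H2-O dimer that restrains peptide loading of MHC class II, was at 9.20, 9.24, 9.15, 9.51 and 9.48 against 7.31, 7.86 and 8.36, with no overlap and a difference of 1.504 ± 0.30 (adjusted p = 0.0106). Prss16, a thymus protease, Btla, an inhibitory receptor of B and T cells, and Tnfrsf13b, a receptor for the B cell survival factors BAFF and APRIL, lie outside the rule for naming genes and were chosen after their values were seen. Prss16 was at 11.27, 10.998, 11.26, 11.96 and 11.86 in MLL-AF9 and 9.44 to 10.93 in MLL-ENL (2.76-fold, adjusted p = 5.99e-04). Btla ran from 11.11 to 12.19 against 9.29 to 10.98 (2.63-fold, adjusted p = 0.0257), and Tnfrsf13b from 11.97 to 12.42 against 10.41 to 11.67 (2.01-fold, adjusted p = 0.00664). None of these 3 overlapped between the cohorts.

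Some called genes encode proteins of the cytoskeleton and of adhesion. Of 20 integrins and adhesion molecules tested 1 was called, Itgb3, with 10 positive, 10 negative and a median of 0.00. Coro2a, an actin-binding coronin also found in nuclear corepressor complexes, was held at 9.80 to 10.20 in MLL-AF9 and ranged over 7.08 to 9.03 in MLL-ENL (3.75-fold, adjusted p = 1.49e-04). Tln2, a talin that couples integrins to actin, was at 8.82, 8.59, 8.85, 9.53 and 9.46 against 7.05, 7.62 and 8.14 (1.49 ± 0.21, adjusted p = 5.85e-05), again without overlap. Itgb3, the integrin beta chain shared by the platelet fibrinogen receptor and the vitronectin receptor, differed 2.18-fold with overlap (adjusted p = 0.0307). Its other, dimmer probe set differed by only 0.14 ± 0.15. Itgb3 is also a platelet gene, and its partner in platelets, Itga2b, averaged 8.86 in MLL-AF9 and 9.10 in MLL-ENL. Itih5, a hyaluronan-associated matrix protein, was at 8.82, 9.55, 8.79, 10.96 and 9.02, with mouse AF9_305 far above the others, against 6.63, 7.64 and 8.48 (3.6-fold, adjusted p = 0.0089).

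The remaining called genes of large difference have diverse functions. Cftr, the chloride channel mutated in cystic fibrosis, was at 6.84, 7.78, 9.51, 8.68 and 9.38 in MLL-AF9, with lowest, median and highest MLL-ENL levels of 5.73, 6.36 and 7.02. The 4.35-fold difference (adjusted p = 0.0104) came with the widest spread in MLL-AF9 among the 15 largest called differences, as mouse AF9_307 lay within the MLL-ENL range. Rpl39l, a paralogue of ribosomal protein L39 known from testis, was at 7.08, 7.31, 9.11, 9.54 and 8.18 and also varied widely (3.87-fold, adjusted p = 0.041). Because Rpl39l has a close paralogue, its probe set may not read this gene alone. Fhit, a dinucleoside triphosphate hydrolase, and Fam135a were 2.81-fold and 2.78-fold higher (adjusted p = 0.0389 and 0.0288). For both genes 1 MLL-ENL marrow, mouse ENL_774 and mouse ENL_760, reached into the MLL-AF9 range.

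**Figure D2:**
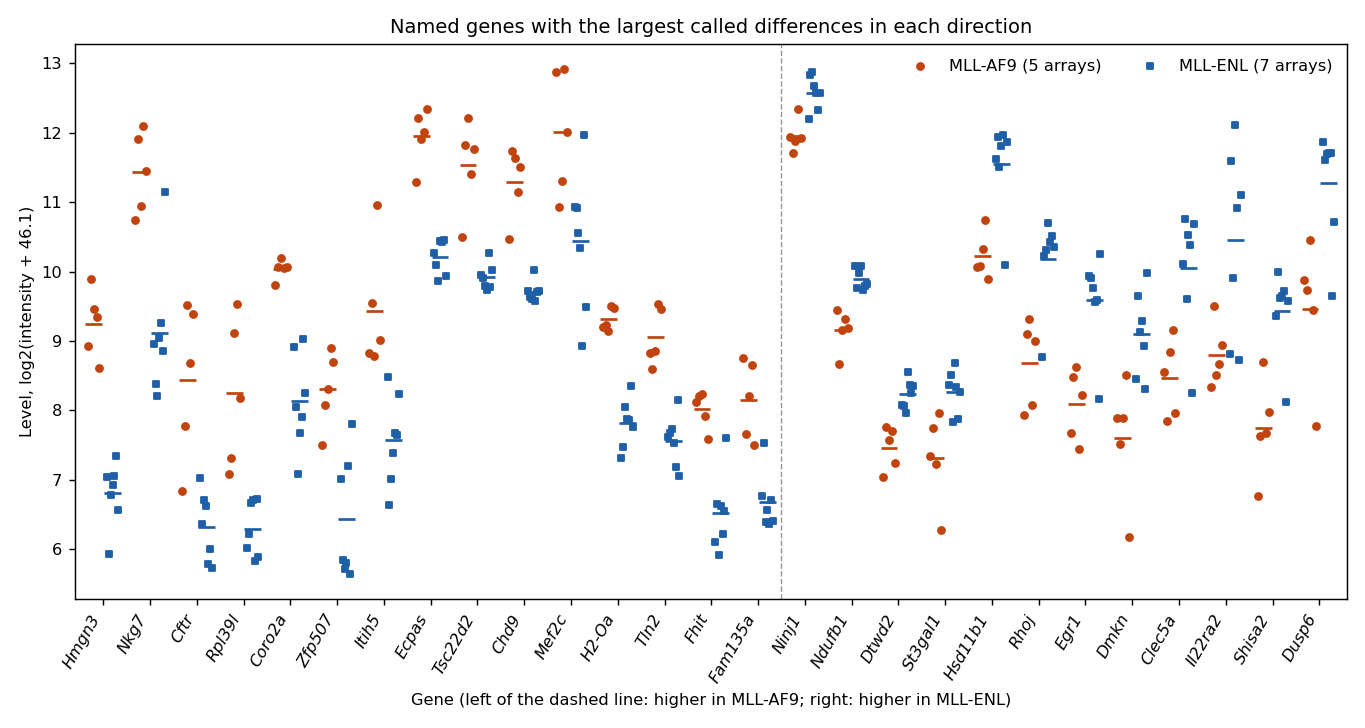
Levels are log2(intensity + 46.1) of called genes with an official symbol, the 15 with the largest differences higher in MLL-AF9 and the 12 higher in MLL-ENL. Circles mark 5 MLL-AF9 arrays, squares 7 MLL-ENL arrays and bars means. Hmgn3, Ecpas and Chd9 separate the cohorts fully, while 1 MLL-ENL square, mouse ENL_742, lies with the MLL-AF9 circles for Dusp6, Shisa2, Egr1 and Hsd11b1.

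The 13 genes higher in MLL-ENL included regulators of signalling. Dusp6, the phosphatase that switches off ERK and is itself induced by ERK, had MLL-ENL levels of 9.65, 11.70 and 11.87 and was at 9.87, 9.74, 10.45, 9.44 and 7.78 in MLL-AF9. It was 3.54-fold higher in MLL-ENL (-1.82 ± 0.43, adjusted p = 0.0365). Of the MLL-ENL marrows 5 lay between 11.61 and 11.87, and mouse ENL_742, at 9.65, stood inside the MLL-AF9 range. Egr1, a zinc finger factor induced within minutes by growth factor signals, was at 8.16, 9.76 and 10.25 against 7.68, 8.49, 8.62, 7.45 and 8.22 (2.83-fold, adjusted p = 0.0365), with mouse ENL_742 again the only MLL-ENL marrow inside the MLL-AF9 range. The same mouse had the highest mean of the 12 over 8 eosinophil, basophil and mast cell genes (10.27, against 7.60 to 8.73 in the other MLL-ENL marrows and 7.94 to 9.29 in MLL-AF9), and the part of cell makeup in its levels was not tested. Shisa2, which holds Wnt and FGF receptors back in the endoplasmic reticulum, was at 8.13, 9.62 and 9.99 against 6.76, 7.63, 8.70, 7.68 and 7.98, and its 3.22-fold difference (adjusted p = 6.41e-04) stayed called without any 1 of the 12 marrows. Rhoj was at 8.78, 10.35 and 10.69 against 7.93, 9.11, 9.32, 8.07 and 9.00 (2.82-fold, adjusted p = 0.0171), and mouse ENL_701 was the low marrow for this gene.

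Receptors and secreted or metabolic proteins made up most of the other genes. Il22ra2, the soluble decoy receptor for interleukin 22, ranged from 8.72 to 12.11 in MLL-ENL, a wider spread than the 8.34 to 9.50 of MLL-AF9 (3.16-fold, adjusted p = 0.0362). Clec5a, a myeloid lectin receptor that signals through DAP12, differed 2.98-fold (adjusted p = 0.0307), and Hsd11b1, the enzyme that regenerates active glucocorticoid, 2.5-fold (adjusted p = 0.0307). Mouse ENL_742 was the lowest MLL-ENL marrow for all 3 of these. Dmkn, the secreted protein dermokine, was 2.84-fold higher in MLL-ENL and the sialyltransferase St3gal1 1.94-fold (adjusted p = 0.0298 and 0.0362). Smaller but tight differences were seen for Dtwd2, a tRNA-modifying enzyme, at 7.96 to 8.55 against 7.05 to 7.76, and for Ndufb1, a subunit of respiratory complex I, at 9.74 to 10.08 against 8.67 to 9.44. Neither overlapped (adjusted p = 0.00664 and 0.025). Ninj1, a protein that ruptures the membrane of dying cells, differed 1.54-fold (adjusted p = 0.0365), and its other 3 probe sets had the same sign. The 13th gene carries a clone name and differed by -1.99. The count of genes higher in MLL-ENL was 27 without mouse ENL_742, 4 without AF9_310 or ENL_741, 5 without ENL_760, 6 without ENL_774, 7 without AF9_307, ENL_702 or ENL_703, and 8 without AF9_308 or ENL_701.

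How far each call rested on 1 marrow differed between genes. Hmgn3, Nkg7, Coro2a, Ecpas, Tsc22d2, Chd9, H2-Oa, Tln2, Prss16, Tnfrsf13b, Phip, Selenot, Cibar1, Shisa2, Dtwd2 and the gene with a clone name stayed called with any 1 of the 12 left out. Itih5 lost its call without mouse AF9_305 (adjusted p = 0.0825). Cftr lost it without AF9_301 or AF9_310, at most to an adjusted p of 0.0643, and Rhoj without AF9_307 or AF9_305, at most to 0.0956. Mef2c lost its call without AF9_307, AF9_305, AF9_310, ENL_703 or ENL_774 (at most 0.14), and Btla without AF9_307, AF9_301, ENL_760, ENL_741 or ENL_774 (at most 0.107). Ndufb1 and Dmkn lost theirs in 6 of the 12 fits (at most 0.132 and 0.182), Itgb3 and Fam135a in 7 (0.107 and 0.128), and Zfp507, Clec5a, Il22ra2 and St3gal1 in 8 (0.154, 0.125, 0.112 and 0.212). Dusp6, Egr1, Rpl39l and Ninj1 did so in 9 (0.212, 0.181, 0.251 and 0.146), and Fhit and Hsd11b1 in 10 (0.119 and 0.112). For Dusp6 the highest of these came without mouse AF9_310, with a difference of -1.40.

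The other cohorts show where each of the 2 lies. MLL-AF9 differed from the mean of MLL-AF1p, MLL-AF10 and MLL-GAS7 in 70 genes (0.545% of those tested), or 32 without mouse AF9_308, 39 without AF9_301 or AF9_310, and 2 with Xist as a covariate. MLL-ENL differed from the same mean in 1118 genes (8.7%), or 537 without mouse ENL_741, 641 without ENL_760 and 673 without ENL_703. The counts rest on 5 and 7 arrays and share the 3 reference cohorts, so they are not set against each other.

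Xist was at 14.16 to 15.11 on all arrays of the 3 reference cohorts, as in MLL-ENL, and at 8.18 to 9.09 in normal marrow, so the 4 MLL-AF9 marrows of low Xist stood apart from these leukaemias in Xist too.

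For some genes MLL-AF9 was the cohort that stood apart. Ecpas averaged 11.95 ± 0.41 (SD, n = 5) there and 10.20, 10.34 and 10.18 in the AF1p, AF10 and GAS7 cohorts and 9.57 in normal marrow, with MLL-ENL at 10.21 ± 0.25 (n = 7). Its difference from the other 3 cohorts was 1.71 ± 0.19, adjusted p = 4.36e-07, for MLL-AF9 and -0.03 ± 0.17 for MLL-ENL. Chd9 was also highest in MLL-AF9, with 11.29 in MLL-AF9, 9.71 in MLL-ENL, 9.30, 9.69 and 10.15 in the AF1p, AF10 and GAS7 cohorts and 9.15 in normal marrow. The MLL-AF9 difference from the 3 was 1.58 ± 0.17, adjusted p = 2.18e-07. Nkg7 averaged 11.43 in MLL-AF9 and 9.12 in MLL-ENL, with 9.65, 9.04 and 9.31 in the AF1p, AF10 and GAS7 cohorts and 11.22 in normal marrow.

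For other genes MLL-ENL was the outlying cohort. Tln2 averaged 7.56 in MLL-ENL against 9.05 in MLL-AF9, with 8.84, 8.64 and 9.15 in the AF1p, AF10 and GAS7 cohorts and 6.06 in normal marrow, and the difference of MLL-ENL from the 3 cohorts was -1.31 ± 0.16, adjusted p = 2.10e-06. Rhoj averaged 10.18 in MLL-ENL and 8.69 in MLL-AF9, beside 8.38, 7.96 and 7.53 in the AF1p, AF10 and GAS7 cohorts and 8.27 in normal marrow (2.22 ± 0.24, adjusted p = 2.71e-07 for MLL-ENL against the 3). Dusp6 and Il22ra2 were also high in MLL-ENL against the 3 cohorts, by 1.52 ± 0.32, adjusted p = 0.00293, and 2.07 ± 0.29, adjusted p = 1.95e-05. Hmgn3 lay between: it averaged 9.25 in MLL-AF9, 6.81 in MLL-ENL and 7.25, 7.69 and 8.19 in the AF1p, AF10 and GAS7 cohorts and 9.34 in normal marrow. Mef2c averaged 12.01 in MLL-AF9 and 12.25 in MLL-GAS7, above 11.05 in MLL-AF1p, 11.05 in MLL-AF10 and 10.44 in MLL-ENL.

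**Figure D3:**
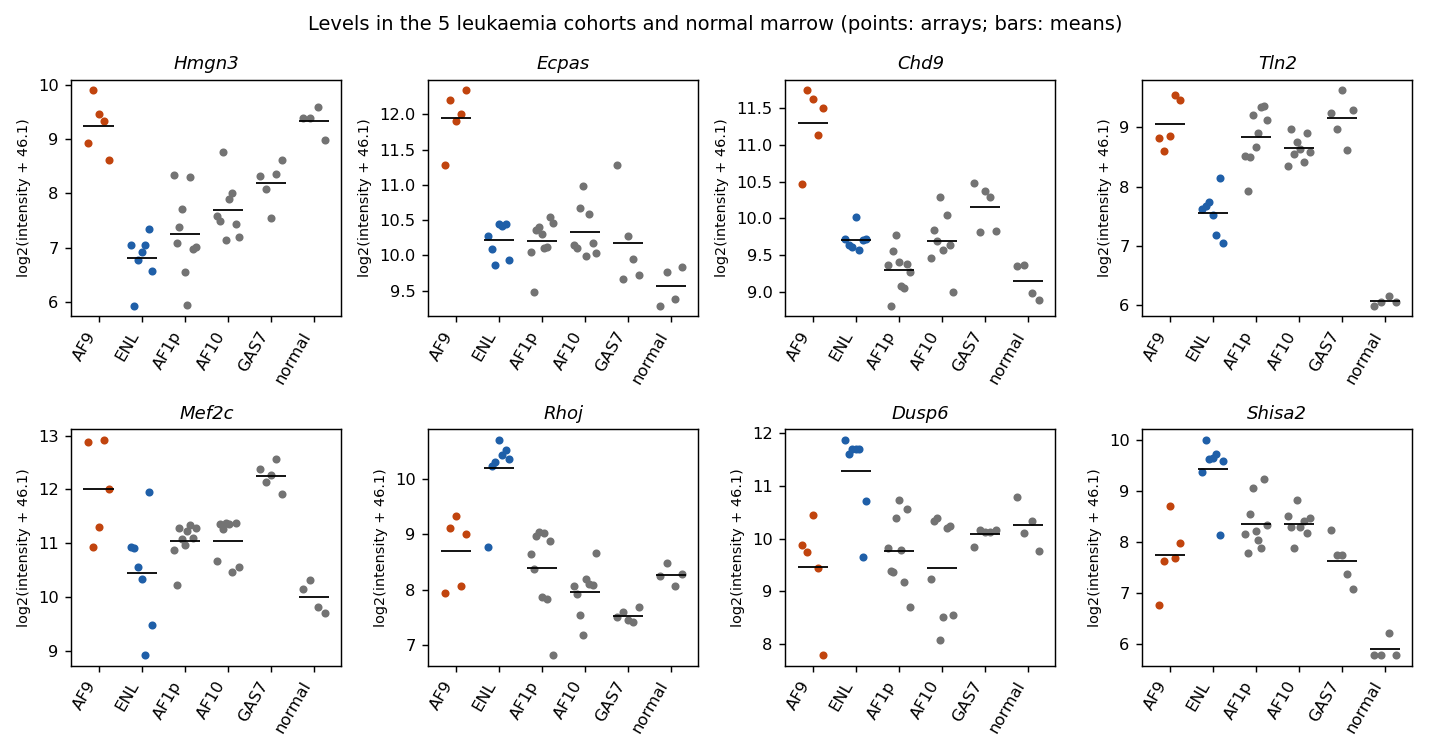
Levels of 8 genes, as log2(intensity + 46.1), are shown for every array of the 5 leukaemia cohorts and normal marrow, with bars for means. Ecpas and Chd9 are high in MLL-AF9, Rhoj and Dusp6 in MLL-ENL, and Tln2 is lower in MLL-ENL than in the other 4 leukaemia cohorts.

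The 50 called genes lay on 19 chromosomes, and pairs with fewer than 10 protein-coding genes between them were found 2 times, both higher in MLL-AF9. Hmgn3 and Phip are direct neighbours on chromosome 9. Phip, a bromodomain protein chosen for this position after its values were seen, was at 11.29, 12.21, 11.95, 11.53 and 11.43 in MLL-AF9 and 10.56 to 11.02 in MLL-ENL (0.87 ± 0.14, adjusted p = 6.18e-04), although a dimmer probe set of the same gene differed by -0.17. Lca5, the gene on the other side of Hmgn3, differed by -0.10 ± 0.24 (adjusted p = 0.944). On chromosome 3, Tsc22d2 and Selenot, an endoplasmic reticulum selenoprotein, are separated by Serp1 and Eif2a. Selenot was at 12.54, 13.84, 13.84, 12.79 and 13.34 against 12.16 to 12.54 (0.91 ± 0.16, adjusted p = 0.00299). Serp1, a protein of the secretory pathway, differed by 0.61 ± 0.16 and missed the threshold (adjusted p = 0.0718), while Eif2a differed by -0.18 ± 0.16.

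Promoter windows of 250 bases before to 50 after the start site, from RefSeq on build GRCm38.p6, were at hand for 38 of the 50 called genes. The letters TGACAG, known to be bound by Meis proteins, CCAAT and the GC box GGGCGG were searched on both strands. Of the 29 windows of genes higher in MLL-AF9, 9 (31.0%) held TGACAG, 10 (34.5%) CCAAT and 16 (55.2%) GGGCGG, beside 19.3%, 37.9% and 35.9% of the first windows of 27025 genes. Those 27025 include genes that did not pass the filter on level, so they are not a matched background for called genes. Of the 9 windows of genes higher in MLL-ENL, 3 held TGACAG, 4 CCAAT and 1 GGGCGG. The ETS letters CCGGAAGT were in 1 of the 29 and 0 of the 9 windows (4.0% of all), and TGACGTCA in 0 of either (1.88% of all). The windows of 4 genes with 1 listed start site are shown, with capitals for any of these letters, because they belong to a member of each neighbouring pair (Phip of Hmgn3 and Phip, Selenot of Tsc22d2 and Selenot), to the called MHC class II gene and to the called ERK phosphatase. They lie at chr9:82975440-82975739 (minus strand), chr3:58576386-58576685 (plus), chr17:34092129-34092428 (plus) and chr10:99262981-99263280 (plus).
Phip: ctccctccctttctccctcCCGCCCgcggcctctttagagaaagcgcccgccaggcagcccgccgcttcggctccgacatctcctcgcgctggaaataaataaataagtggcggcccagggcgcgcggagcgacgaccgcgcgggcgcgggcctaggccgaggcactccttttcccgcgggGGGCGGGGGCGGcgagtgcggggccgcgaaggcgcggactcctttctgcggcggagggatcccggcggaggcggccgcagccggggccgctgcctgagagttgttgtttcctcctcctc
Selenot: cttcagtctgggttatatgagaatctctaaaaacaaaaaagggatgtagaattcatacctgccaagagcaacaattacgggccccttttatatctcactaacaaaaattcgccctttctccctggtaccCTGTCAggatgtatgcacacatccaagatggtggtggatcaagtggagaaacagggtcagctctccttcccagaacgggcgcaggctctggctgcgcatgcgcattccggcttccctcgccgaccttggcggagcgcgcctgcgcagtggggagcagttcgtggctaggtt
H2-Oa: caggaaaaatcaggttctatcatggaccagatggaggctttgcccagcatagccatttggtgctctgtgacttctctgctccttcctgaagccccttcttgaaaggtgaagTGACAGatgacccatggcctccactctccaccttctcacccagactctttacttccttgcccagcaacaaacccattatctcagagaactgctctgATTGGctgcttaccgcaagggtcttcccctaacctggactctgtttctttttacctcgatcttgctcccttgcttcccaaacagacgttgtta
Dusp6: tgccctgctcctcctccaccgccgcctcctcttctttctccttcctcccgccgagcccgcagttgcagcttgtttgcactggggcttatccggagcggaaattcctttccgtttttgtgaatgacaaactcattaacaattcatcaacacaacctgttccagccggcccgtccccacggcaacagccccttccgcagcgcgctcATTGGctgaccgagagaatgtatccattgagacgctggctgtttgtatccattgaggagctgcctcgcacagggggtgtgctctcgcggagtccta
The Phip window holds 3 GC boxes, that of Selenot 1 TGACAG, that of H2-Oa 1 TGACAG and 1 CCAAT, and that of Dusp6 1 CCAAT. Each match describes the letters and is no evidence of binding.

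Gene lists drawn from general knowledge of leukaemia and marrow were then counted against the whole table. Of 653 list genes tested over 44 lists, 6 were called: Mef2c, Nkg7, Itgb3 and H2-Oa higher in MLL-AF9, and Dusp6 and Egr1 higher in MLL-ENL. All genes had 0.389% called. The 6 fell to 2 without mouse AF9_307, AF9_310 or ENL_703, to 3 without AF9_305, ENL_702 or ENL_741, and to 1 with Xist as a covariate. Among 18 MLL fusion targets 1 was called, the median difference was 0.19, and 13 were positive and 5 negative. Of these targets 7 had an unadjusted p under 0.05, beside 8.95% of all genes. Over all genes the median was -0.05 and 41.5% were positive. Flt3, the cytokine receptor and drug target, was at 11.09, 9.95, 10.40, 10.72 and 9.01 in MLL-AF9, with lowest, median and highest MLL-ENL levels of 6.93, 8.18 and 9.41 (1.94 ± 0.53), which did not pass the test (adjusted p = 0.117). Jmjd1c, a demethylase-family protein, differed by 0.61 ± 0.18 (adjusted p = 0.163), and the targets Hoxa7 and Mycn by -0.79 ± 0.37 and -0.75 ± 0.33 (adjusted p = 0.53 and 0.472). Of 23 genes for MLL, its partners and the elongation complex none was called by limma, 4 had an unadjusted p under 0.05, and the median was 0.00. Cd24a, a surface glycoprotein of progenitors, differed by 2.29 ± 0.58 and was not called (adjusted p = 0.0711) with MLL-ENL levels from 9.53 to 12.63. Flt3, Jmjd1c, Hoxa7, Mycn and Cd24a lie outside the rule for naming genes and were picked with their values known.

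The MHC class II genes had the highest list median, 0.98 over 9 genes, beside -0.05 for all genes, and without mouse AF9_305 it was 0.61. Of these, 1 gene was called and 5 had an unadjusted p under 0.05, as had 8.95% of all genes. Besides H2-Oa, its dimer partner H2-Ob did not overlap between cohorts (8.74, 7.96, 8.19, 8.59 and 8.25 against 6.62 to 7.88; 0.98 ± 0.27, adjusted p = 0.138). The peptide-presenting chain H2-Aa was at 11.83, 9.14, 9.00, 12.46 and 9.43 in MLL-AF9, with mice AF9_307 and AF9_305 high and the others close to the MLL-ENL levels of 8.53, 8.70 and 9.76 (adjusted p = 0.322). Cd74, the invariant chain, and H2-Eb1 had the same 2 high marrows (12.02, 9.77, 9.47, 12.82 and 9.84, and 10.76, 8.77, 8.78, 11.35 and 8.77; adjusted p = 0.41 and 0.459). H2-Ab1 differed by 0.46 ± 0.35. The peptide exchange genes H2-DMa and H2-DMb2 differed by -0.10 ± 0.28 and -0.12 ± 0.34, and Ciita, the master regulator of class II transcription, by -0.16 ± 0.23. These 4 had adjusted p of 0.76, 0.959, 0.959 and 0.896. Class II genes are also expressed by B cells and dendritic cells. The mean over 9 dendritic cell genes was 8.88 in mouse AF9_307 and 8.59 in mouse AF9_305, the 2 marrows with high H2-Aa, Cd74 and H2-Eb1, and 8.11 to 8.30 in the other 3 MLL-AF9 marrows. It ran from 8.05 to 8.58 in MLL-ENL. The part of such cells was not tested. The 8 interferon regulatory factors tested, which include Irf8, differed by -0.27 (Irf9) to 0.28 (Irf1), and limma called none. On these probe sets 0 of the 8 had an unadjusted p under 0.05. The other Irf4 probe set differed by 1.10 ± 0.40 and the one used by 0.18 ± 0.34.

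The inhibitors that ERK signalling induces against itself had the lowest list median, -0.31 over 13 genes, of which 11 were negative, 1 was called and 5 had an unadjusted p under 0.05. Over all genes tested the median was -0.05 and 41.5% were positive. Of all genes 0.389% were called, 8.95% had an unadjusted p under 0.05 and 1.28% did not overlap between the cohorts. Beside Dusp6, Spred1 and Spred2, which block Ras activation of Raf, did not overlap: Spred1 was at 8.52, 7.96, 8.57, 8.52 and 7.66 against 8.90 to 9.50 and Spred2 at 9.66, 9.38, 9.88, 9.20 and 9.18 against 9.91 to 10.53. Neither passed the test (-0.93 ± 0.35 and -0.80 ± 0.24, adjusted p = 0.388 and 0.179). Spry2, another inhibitor of receptor signalling, differed by -0.62 ± 0.24 (adjusted p = 0.408). Spred1, Spred2 and Spry2 lie outside the rule for naming genes and were picked with their values known. Of 17 immediate early genes Egr1 was called, and the median was -0.24.

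Growth lists were lower in mouse AF9_305 than in the other marrows, and limma called none of their genes. The mean over 23 mitosis genes was 10.20 in mouse AF9_305, 11.03 to 11.27 in the other 4 MLL-AF9 marrows and 10.91 to 11.25 in MLL-ENL. Over 25 DNA replication genes it was 10.47 in mouse AF9_305, 11.27 to 11.50 in the other 4 and 11.14 to 11.64 in MLL-ENL. Mouse AF9_305 was also the lowest of the 12 for ribosome biogenesis (9.94) and oxidative phosphorylation genes (12.12). With all 12 arrays 22 of the 23 mitosis genes were negative (median -0.13), and without mouse AF9_305 3 were (median 0.05). DNA replication went from 22 to 12 of 25 negative, ribosome biogenesis from 20 to 14 of 22 and oxidative phosphorylation from 25 to 15 of 27, beside 58.5% and 55.5% of all genes. The 13 chaperone genes had 12 negative with and without mouse AF9_305 (medians -0.30 and -0.25). Genes with an unadjusted p under 0.05 numbered 0 of 23, 1 of 25, 3 of 22, 1 of 27 and 3 of 13 in these 5 lists, beside 8.95% of all genes. Late neutrophil genes (18 tested, median 0.11), monocyte genes (20, -0.04) and primary granule genes (9, -0.06) held no called gene, and 1, 2 and 2 had an unadjusted p under 0.05. Without mouse ENL_742 the late neutrophil median was -0.05 and the monocyte median -0.13. With the deposited scaling the monocyte median was 0.02.

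**Figure D4:**
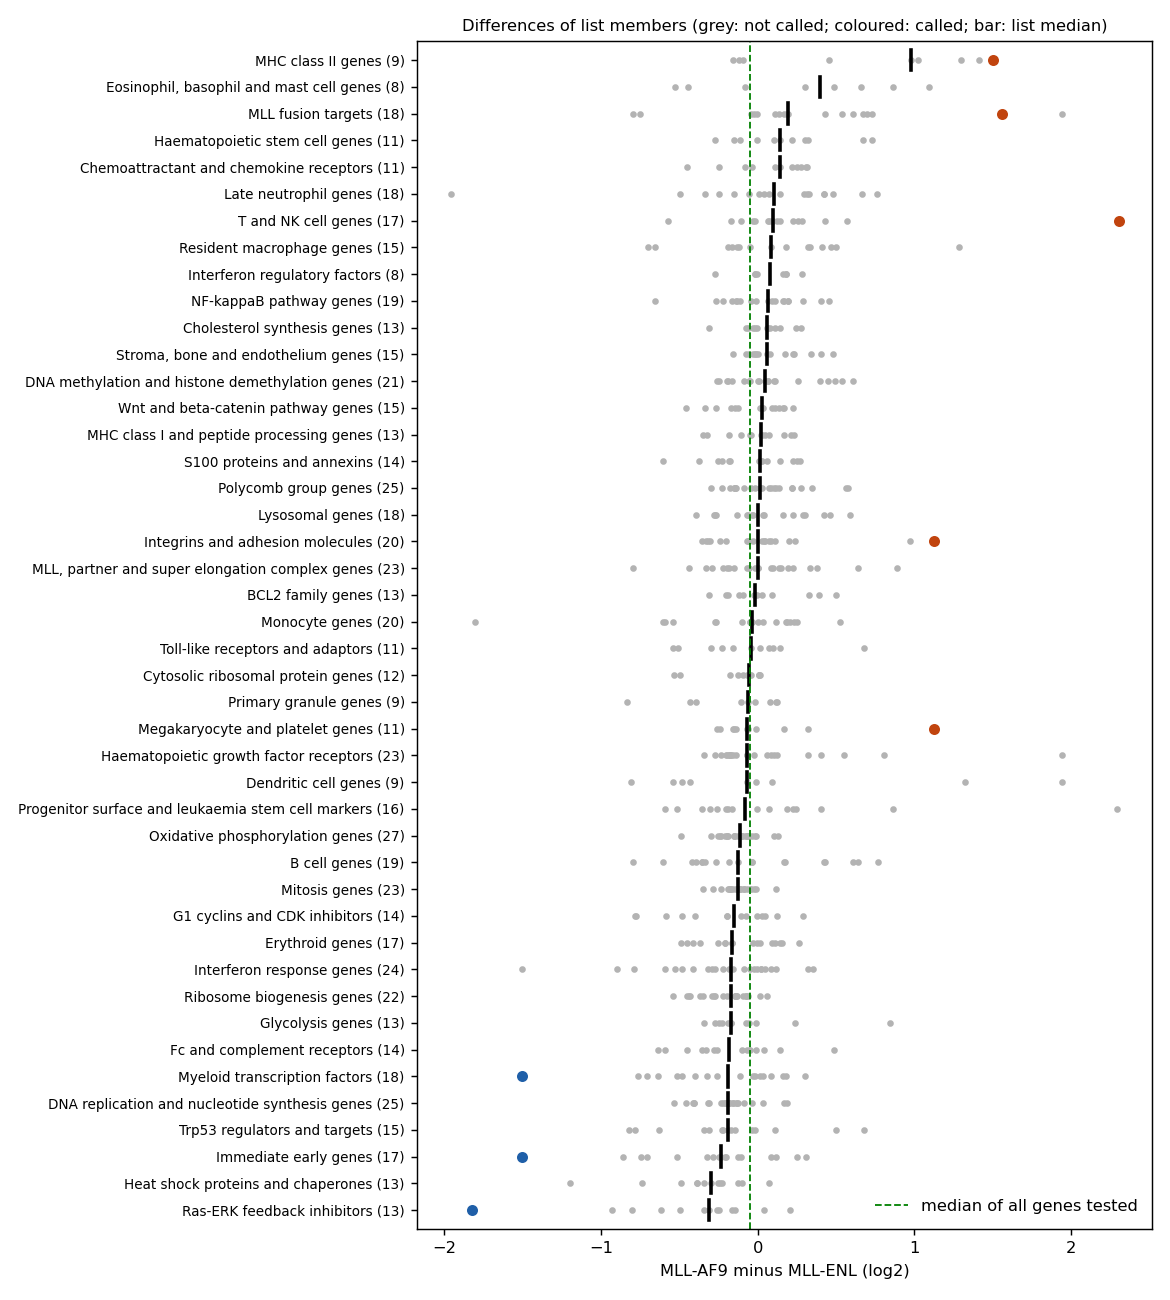
Each row is a gene list with its number of genes tested, each point a gene's MLL-AF9 minus MLL-ENL difference (log2), coloured where called, and the black bar the list median. MHC class II genes have the highest median at 0.98 and Ras-ERK feedback inhibitors the lowest at -0.31, beside -0.05 for all genes (dashed line).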

How the data were processed

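Per the labels, 1 Affymetrix array was run per marrow, and the authors deposited an intensity on a linear scale for each probe set. A 2% trimmed mean of 500.0 was found on all arrays. No software for these values is named in the labels. All 45101 probe sets were read on 38 arrays, and 34754 were matched by Entrez identifier to RefSeq genes. Values were converted to log2(intensity + 46.1), arrays were shifted to a common median, and probe sets above their array's median on at least 4 arrays were kept. The brightest kept probe set stood for a gene, and 408 genes on X and Y were set aside. A linear model with 6 group means was fitted to all 38 arrays in limma 3.58.1 (R 4.3.3, 32 residual degrees of freedom) with 2-sided moderated tests. The named genes are the 15 largest called differences in each direction with an official symbol, up to 5 called members of each list, all members of lists of at most 10 genes, and Kmt2a, Mllt1, Mllt3, Hoxa9 and Meis1. Flt3, Jmjd1c, Hoxa7, Mycn, Cd24a, Spred1, Spred2 and Spry2 are list members outside this rule, picked with their values known. The cohorts, lists and array sets were chosen with earlier results of these data known. Nothing states that the mice came from separate donors, so p-values measure the spread between these mice. The fit was tested on simulated data. Alternatives in scaling, pseudocount, filter, probe sets, arrays, Xist level and array set were run, and each marrow was left out in turn. Folds on this scale understate changes of dim genes, and the number of arrays limits the precision.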

Additional observations from a re-analysis of the deposited data

Results flagged for a closer look

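In 7 of the 98 sets of values formed by 49 named genes in the 2 cohorts, 1 marrow stood far from the rest of its cohort. Chance gives about 1 in 20 such sets. All 7 were MLL-ENL marrows. Mouse ENL_742 was the lowest for 3 genes: Shisa2 at 8.13 against 9.36 to 9.99 in the other 6, Egr1 at 8.16 against 9.55 to 10.25, and Hsd11b1 at 10.10 against 11.51 to 11.96. Mouse ENL_701 was at 8.78 for Rhoj, where the other 6 lay between 10.22 and 10.69. The other 3 marrows were high for genes that were otherwise low in MLL-ENL: mouse ENL_774 for Nkg7 (11.15 against 8.21 to 9.25), mouse ENL_741 for Chd9 (10.02 against 9.57 to 9.72) and mouse ENL_760 for Fam135a (7.54 against 6.37 to 6.77). In the means over gene lists the same mouse ENL_742 was the highest of MLL-ENL for eosinophil, basophil and mast cell genes (10.27 against 7.60 to 8.73) and the lowest for late neutrophil genes (10.26 against 11.20 to 12.71), monocyte genes (11.62 against 12.02 to 12.73) and S100 and annexin genes (11.44 against 12.43 to 12.98). The part of these cells in its levels was not tested.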

How the results depend on the processing

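All 50 called genes kept their sign under every alternative that tested them. These fits reuse the arrays from which the genes were called, so the kept signs are no independent test. The count stayed within 1.5 times of 50 with other scalings, pseudocounts, filters, probe set rules and priors. The same held with the array set as a term (55, all 50 kept) and with X and Y genes included (60). With only the 12 arrays the counts were 20 genes (13 higher in MLL-AF9, 7 in MLL-ENL), 1 list member and 9 named genes. Of the 50 called in the main fit, 13 stayed called there. Array weights called 122 genes (70 and 52), 13 list members, and 263 and 1838 genes for MLL-AF9 and MLL-ENL against the other 3 cohorts. With Xist as a covariate there were 23 genes (14 higher in MLL-AF9), 1 list member, 6 named genes, and 2 genes for MLL-AF9 against the 3 cohorts. Within groups Xist varied widely only in MLL-AF9, so these counts rest mainly on mouse AF9_305. Within the first array set limma called 3 genes (1 and 2), 1 list member and 1 named gene, and 22 and 86 genes against the 3 cohorts. Within the second it called 5 (5 and 0), 0 list members and 4 named genes, and 10 and 149 against the 3. Fewer arrays enter these fits. Cohort and array set had no called interaction: 0 of 12854 genes, with 434 at an unadjusted p under 0.05. Among the called genes Cftr, Grk3, Slc26a8, Smagp, Smim14 and Tln2 were at that level (interaction test, unadjusted p from 0.0197 to 0.0414). Cftr differed by 1.37 within the first set and by 3.19 within the second. The second set holds 2 MLL-AF9 arrays, so the test could miss interactions. When the 5 arrays of highest hybridisation control signal were dropped, 27 genes were higher in MLL-ENL, 11 list members were called, and 635 genes differed for MLL-ENL against the 3. Causes were not tested. With 1 marrow left out, the counts ran from 24 to 66 genes (19 to 39 higher in MLL-AF9, 4 to 27 in MLL-ENL), 2 to 7 list members, 13 to 27 named genes, 32 to 94 genes for MLL-AF9 and 537 to 1193 for MLL-ENL against the 3 cohorts.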

Other observations

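Genes outside the lists added to those higher in MLL-AF9. They were chosen after their values were seen. Sema4d, a semaphorin of lymphocytes, was at 12.46, 11.61, 11.84, 12.98 and 11.87 in MLL-AF9 and between 11.06 and 11.54 in MLL-ENL, with no overlap (adjusted p = 0.02, limma). It lost its call without mouse AF9_307 or AF9_305, at most to an adjusted p of 0.154. Cibar1 was at 9.03 to 9.62 in MLL-AF9 and at 7.25 to 8.53 in MLL-ENL. It averaged 9.70, 9.32 and 9.49 in the AF1p, AF10 and GAS7 cohorts, so MLL-ENL had the lowest mean of the 5 leukaemia cohorts. Rspo1, a secreted enhancer of Wnt signalling, was at 7.72 to 8.49 against 6.52 to 7.48, a difference of 1.16 ± 0.24 (adjusted p = 0.0125, and 0.0501 without mouse AF9_310).

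Of the genes set aside, 7 were called when chromosomes X and Y were included. Besides Xist and Eif2s3y these were Kdm5d, Uty, Eif2s3x, Taf9b and Bhlhb9. Bhlhb9, on the X chromosome, was at 8.22 to 9.61 in MLL-AF9 and at 6.85 to 8.11 in MLL-ENL, and mouse AF9_305 had the lowest MLL-AF9 level.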
